A study of Mus musculus with 6 samples.

Results

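The 1016 promoters described here are those at which the histone mark H3K4me3 was called in both replicates of an experiment on mouse fetal male germ cells. They were chosen by their peaks: each is a region of the H3K4me3 replicate 2 list that the authors classed as promoter-TSS (at a transcription start site, TSS) and that shares at least 1 bp with a region of the replicate 1 list. They make up 98.0% of the 1037 promoter regions of replicate 2 (95% Wilson interval 96.9% to 98.7%), 58.7% of its 1730 regions and 1.57% of the 64891 regions of replicate 1. Each overlaps exactly 1 region of replicate 1, and no replicate 1 region is shared between 2 of them. For 1008 of them the transcript in the authors' class was matched to a gene, 1006 genes in all, with Fa2h and Gabbr1 each named by 2 promoters, and the other 8 have no gene name here. Since both H3K4me3 lists chose them, scores, widths and ranks in those lists are given as descriptions with no test.

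The cells were prospermatogonia, sorted by fluorescence from the gonads of male embryos at embryonic day 16.5. Per the labels, the animals were C57BL/6 and Taf4b-wildtype, and came from matings of mice homozygous for an Oct4-EGFP transgene, in which green fluorescence is driven from a gene active in germ cells. Chromatin was profiled by CUT&RUN, an assay that cuts out antibody-bound chromatin with a tethered nuclease and sequences it, with antibodies against H3K4me3, TAF4b or IgG and 2 libraries each. The IgG libraries were not analysed here, and whether the libraries of an antibody came from separate animals is not stated, so the spread between them may be technical. How many embryos were pooled is not given in the sources used here.

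H3K4me3, trimethylation of lysine 4 on histone H3, marks nucleosomes around the start sites of active and poised genes, and its domains are wider at some developmental and highly transcribed genes. The start site itself is usually depleted of nucleosomes, and the general transcription factor TFIID assembles there with RNA polymerase II. TAF4b is a germ cell enriched variant of the TFIID subunit TAF4 and is needed for a lasting supply of sperm in male mice.

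The sequences below show what such promoters look like where all 4 lists place a peak. They are the 200 bases before the start site (GRCm39, 5′ to 3′ on the strand of the gene) of 5 of the 6 genes with the highest replicate 2 score among those where TAF4b peaks of both libraries overlap these bases, leaving out windows that contain an annotated exon. Capitals mark matches on either strand to GGGCGG, called the GC box and a site of SP1-type factors, and to CCAAT, the site of NF-Y. The windows are those of Iffo2 (chr4:139301744-139301943, plus strand), Strada (chr11:106084465-106084664, minus strand), Pcdh17 (chr14:84680765-84680964, plus strand), Paqr3 (chr5:97259648-97259847, minus strand) and Ubr2 (chr17:47321533-47321732, minus strand).
Iffo2: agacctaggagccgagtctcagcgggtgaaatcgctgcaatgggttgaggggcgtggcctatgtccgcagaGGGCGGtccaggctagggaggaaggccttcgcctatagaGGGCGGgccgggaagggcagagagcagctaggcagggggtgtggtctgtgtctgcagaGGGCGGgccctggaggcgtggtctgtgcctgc
Strada: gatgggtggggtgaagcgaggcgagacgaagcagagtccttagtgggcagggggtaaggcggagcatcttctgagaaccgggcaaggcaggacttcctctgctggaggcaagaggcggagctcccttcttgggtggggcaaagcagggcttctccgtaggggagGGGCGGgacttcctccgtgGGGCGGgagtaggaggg
Pcdh17: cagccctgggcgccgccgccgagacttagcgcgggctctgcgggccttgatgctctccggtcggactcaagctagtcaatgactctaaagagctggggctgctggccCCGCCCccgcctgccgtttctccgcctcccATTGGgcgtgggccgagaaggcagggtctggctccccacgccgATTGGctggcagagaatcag
Paqr3: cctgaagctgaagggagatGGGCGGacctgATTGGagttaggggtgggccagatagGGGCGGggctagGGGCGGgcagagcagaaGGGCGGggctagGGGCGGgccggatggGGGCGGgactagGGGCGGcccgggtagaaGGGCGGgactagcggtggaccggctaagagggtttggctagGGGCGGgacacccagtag
Ubr2: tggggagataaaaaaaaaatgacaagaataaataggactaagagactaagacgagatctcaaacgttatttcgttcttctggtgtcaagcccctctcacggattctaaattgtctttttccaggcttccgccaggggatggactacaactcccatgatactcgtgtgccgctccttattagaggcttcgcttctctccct
GC boxes began 129, 90 and 32 bases before the start of Iffo2, an intermediate filament family gene, in a window of 66.5% G and C. The window of Paqr3, which encodes a Golgi membrane protein, held 9 GC boxes and 1 CCAAT box. Pcdh17, a protocadherin gene, had CCAAT boxes 63 and 20 bases before the start. Ubr2, which encodes a ubiquitin ligase of the N-end rule pathway required for male meiosis, had no match, and its window was 44.5% G and C. Etv5, which encodes a transcription factor of spermatogonial stem cell self-renewal, is the gene of the germ cell lists that met the same exclusions over 100 bases. The window (chr16:22258484-22258583, minus strand) lies wholly under a TAF4b peak of replicate 1 and holds 1 CCAAT box and 1 GC box.
Etv5: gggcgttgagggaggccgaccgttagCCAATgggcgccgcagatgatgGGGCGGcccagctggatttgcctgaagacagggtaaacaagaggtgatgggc

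Over the 1008 of these promoters whose transcript was found in the annotation, the 200 bases before the start were rich in G and C. Their median GC content was 65%, against 59.5% at the 12511 other replicate 1 promoter regions with a matched start and 54.5% at the starts of 21717 protein-coding genes. The median number of CpG dinucleotides was 15, against 11 and 7. Motifs were searched on both strands. A GC box was present in 59.6% (601 promoters), against 44.0% of the other replicate 1 promoter regions and 34.8% of all coding genes. A CCAAT box was present in 33.8%, against 28.8% and 32.3%. The ETS motif CCGGAAG was in 8.83%, against 9.39% and 6.28%, and the NRF1 motif GCATGCGC in 3.08%, against 2.91% and 2.50%. The TATA motif, searched as TATAAA, was in 2.78%, against 5.14% and 9.57%. Among these 5 motifs, the GC box share stood furthest above the other replicate 1 promoters and the TATA share furthest below in proportion. A GC-rich window holds more matches to G and C letters by composition alone, and the parts of composition and of motif were not separated.

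The lists differ greatly in length: replicate 1 held 64891 H3K4me3 regions against 1730 in replicate 2, and TAF4b replicate 1 held 7861 peaks against 848. Read totals are not given in the sources used here, so the depth behind each region is unknown, and a promoter absent from replicate 2 was not listed there rather than shown to lack the mark. At the edge of the overlap rule, the region of Nek8, a ciliary kinase gene, shared 113 bp with its replicate 1 region and that of Taf5l, a subunit gene of the SAGA-type PCAF complex, shared 114 bp. The smallest overlap was 14 bp, at a start on chromosome 18 whose transcript was not matched to a gene name. Just outside, replicate 2 promoter regions of Pde8b, Zfp451 and Tceanc2 lay 13, 23 and 23 bp from the nearest replicate 1 region. In all 21 promoter regions of replicate 2 had no overlap, with a median gap of 248 bp, and 11 of them lay within 250 bp.

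The score is the authors' peak score, whose normalization is not stated, and ranks count from 1 for the highest score within a list, with ties sharing a rank. The promoters had a median replicate 2 score of 111.2 (quartiles 101.1 and 136.4, range 96 to 2395.2), and 150 of them stood at the lowest score of that list. The regions they overlapped in replicate 1 had a median score of 119.2 (quartiles 90.9 and 161), against 74.5 (44.7 and 110.3) at the 12600 other promoter regions of replicate 1. Their median rank in replicate 1 was 5799, with quartiles at 2027 and 11749, against a median of 16972 for the other promoters. The best-scored 10% of all replicate 1 regions held 553 of them (54.4%), against 22.6% of the other promoters, and 43 (4.23%) scored below the median of that list. Ranked among the 1016 alone and not within the whole lists, 20 promoters were in the 100 highest scores of both replicates.

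**Figure D1:**
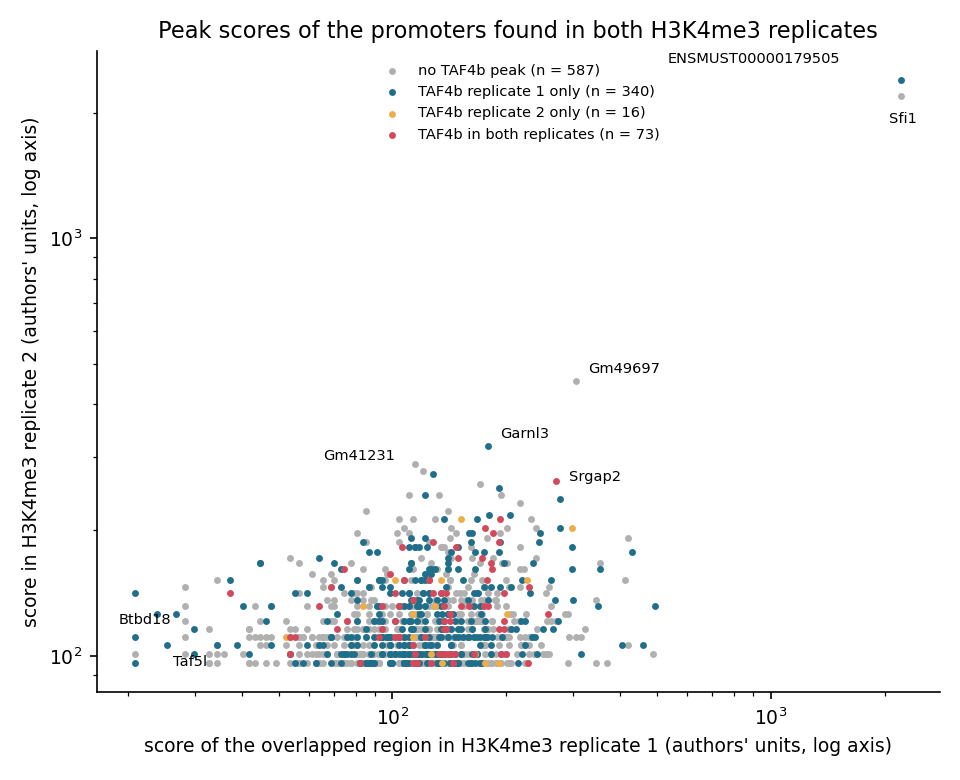
Score in H3K4me3 replicate 2 (vertical) against the score of the overlapped region in replicate 1 (horizontal) for 1016 promoters, in the authors' units on log axes; colours give the TAF4b libraries with a peak in the replicate 2 region. A pair of regions, at a transcript on an unplaced scaffold and at Sfi1, lie far above the rest in both lists, and below them the cloud shows little relation between the lists.

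The order of scores was weakly shared between the lists. Across the 1016 promoters, Spearman's rho between the replicate 1 and replicate 2 scores was 0.168 and Pearson's r was 0.817. Without the 2 promoters of highest replicate 2 score, r was 0.191 and rho 0.163. Within a list, score followed width: rho was 0.789 in replicate 1 and 0.791 in replicate 2. These correlations describe regions of the same libraries, in which score and width come from the same reads. The share of replicate 1 promoter regions found again rose with their score, from 0.705% in the lowest of 10 score classes to 16.5% in the highest.

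The 2 extreme promoters were alike in both lists. The region on an unplaced scaffold, at transcript ENSMUST00000179505, scored 2395.2 in replicate 2 (rank 1) and 2215 in replicate 1 (rank 2), and it also held the highest-scoring TAF4b peak of replicate 1, at 266.5, but no TAF4b peak of replicate 2. The region of Sfi1 (chr11:3142756-3144196), which encodes a centrin-binding protein of the centrosome, scored 2188.1 (rank 2) and 2216.5 (rank 1) and held no TAF4b peak of either library. How reads from repeated sequence were placed is not given in the sources used here, so values at both regions and in multigene families are uncertain. The IgG libraries were not analysed, so background signal at the scaffold and at Sfi1 was not examined.

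Next below these was Gm49697, a transcribed pseudogene, with 454.8 in replicate 2 (rank 6). Among protein-coding genes, Garnl3 (chr2:33020336-33021825), a gene of the Rap GTPase-activating family, scored 318.4 in replicate 2 (rank 13) and 178.9 in replicate 1 (rank 1249). Fbxo44, which encodes an F-box substrate receptor of ubiquitin ligases, scored 277.9 (rank 17) and 120.7 (rank 5675), and its region also contains the start of Fbxo2 on the other strand. Maco1, which encodes macoilin of the endoplasmic reticulum, scored 272.9 and 128.2. Srgap2, a GTPase-activating gene of the Slit-Robo pathway, scored 262.8 and 271.3 and was the highest in replicate 2 with TAF4b peaks of both libraries. Cdc42bpb, a kinase gene downstream of CDC42, scored 257.7 and 169.9. Klc2 (kinesin light chain), Nphp4 (a ciliary transition zone gene) and Phactr2 (an actin and phosphatase regulator) shared a replicate 2 score of 242.6, with 132.7, 122.2 and 193.8 in replicate 1. Tiam1, an exchange factor gene for RAC, scored 237.5 and 277.3. Their replicate 1 ranks run from 167 to 5675, and their order differed between the lists.

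In replicate 1, whose regions are at least 500 bp wide, the promoters had a median width of 1636 bp (quartiles 1237 and 2055.5, range 500 to 6675). The other promoter regions of replicate 1 had a median of 1164 bp (755 and 1661). At least 2000 bp were covered at 278 of them (27.4%), against 13.2% of the other promoters, and at least 3000 bp at 54 (5.31%), against 2.08%. Seen from replicate 1, the share of promoter regions found again was 0.531% at the minimum width, 2.77% above it and under 1000 bp, 8.50% from 1000 to under 2000 bp, 11.5% from 2000 to under 3000 bp and 11.8% from 3000 bp. The share rose with width up to 2000 bp and was nearly level beyond.

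The same promoters were narrow in replicate 2, where 570 (56.1%) stood at 500 bp and the widest measured 1767 bp. In 862 cases (84.8%) the replicate 2 region lay wholly inside the replicate 1 region, which was wider by a median factor of 2.78. The replicate 1 region reached past it by a median of 425.5 bp upstream and 556.5 bp downstream in the direction of transcription. Replicate 1 put 854 of these regions in the promoter class as well (84.1%), 86 in exons and 66 in introns.

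The widest replicate 1 regions were compact in replicate 2. Gnasas1, the antisense transcript of the imprinted Gnas locus, had 6675 bp in replicate 1 (rank 9) and 646 bp in replicate 2 (chr2:174136837-174137483, rank 424). Dusp4, a MAP kinase phosphatase gene, had 6192 bp and 500 bp. The region classed under Gm15222 had 5674 bp and contains in replicate 2 the start of Bmp4, a growth factor gene of the BMP family. Anp32a, Zbtb7b, Dmrta2os and Epha4, an ephrin receptor gene, measured 5028, 4956, 4748 and 4585 bp. The Dmrta2os region holds the start of Dmrta2, a DM domain transcription factor gene. The start of the non-coding Gm10421 lay in 5455 bp. In replicate 2 the 8 named here were between 500 and 648 bp wide, and their ranks there ran from 221 to 1464.

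At the other end, Btbd18, Lamc1, Spata1 and Zfp367 overlapped a replicate 1 region of 500 bp with a score of 20.9 and rank 58659, the lowest among these promoters. Dcp1a, a decapping enzyme subunit gene, overlapped 500 bp with a score of 23.8 (rank 54210). Btbd18 encodes a nuclear regulator of piRNA precursor transcription in male germ cells and scored 111.2 in replicate 2, and its region also contains the start of Ctnnd1 on the other strand. The laminin gene Lamc1 scored 141.5 in replicate 2 (rank 307). Across the 5, replicate 2 scores ran from 96 at Zfp367 to 141.5 at Lamc1, and 4 of them, all but Spata1, held a TAF4b replicate 1 peak in the replicate 2 region, as did 40.6% of all 1016 promoters. In the 500 bp replicate 1 region, Zfp367 alone of the 5 held one.

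TAF4b was called at many of these promoters, and this comparison uses libraries that did not choose them. A TAF4b peak of replicate 1 overlapped the replicate 2 region at 413 promoters (40.6%, 95% Wilson interval 37.7% to 43.7%), where the background over all 13454 replicate 1 promoter regions was 29.5%. A TAF4b peak of replicate 2 overlapped 89 (8.76%, 7.17% to 10.7%), where the background was 4.33%. Both backgrounds were counted in replicate 1 regions, which are mostly wider than those of replicate 2. In their replicate 1 regions these promoters stood at 46.7% and 9.84%. Peaks of both TAF4b libraries lay in 73 promoters (7.19%), of replicate 1 only in 340, of replicate 2 only in 16 and of neither in 587 (57.8%). Of the 89 with a replicate 2 peak, 73 (82.0%) had a replicate 1 peak as well. Such agreement was not particular to these promoters. Counted in replicate 1 regions, 87 of their 100 with a replicate 2 peak had a replicate 1 peak too, against 424 of 494 other replicate 1 promoters. Peaks of both libraries then lay in 8.56% of these promoters and 3.37% of the others. These intervals cover counting error only.

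For the comparison with other promoters, the TAF4b peaks were counted in the replicate 1 regions of both sets. The 12600 others are all promoter-TSS in replicate 1, while 162 of the 1016 are of another class there. In TAF4b replicate 1, 46.7% of these promoters held a peak and 28.2% of the 12600 other promoters did, a difference of 18.5 percentage points (95% Newcombe interval 15.3 to 21.6). In TAF4b replicate 2 the shares were 9.84% and 3.92%, a difference of 5.92 points (4.20 to 7.93). The share was thus 1.65 and 2.51 times as high, in the same direction in both libraries. Over the 854 promoters that are promoter-TSS in replicate 1 too, a comparison chosen after seeing the data, the shares were 49.3% and 10.3%. The 162 of another class stood at 32.7% and 7.41%. The 21 promoter regions of replicate 2 with no overlap in replicate 1 also held TAF4b peaks. A TAF4b replicate 1 peak lay in 12 of them (57.1%, 36.5% to 75.5%) and a replicate 2 peak in 3 (14.3%, 4.98% to 34.6%), beside 40.6% and 8.76% of the 1016 counted the same way, in replicate 2 regions. These values do not show the higher TAF4b share to be particular to promoters found in both H3K4me3 lists. The mean difference was 12.2 ± 8.87 points (SD, n = 2 libraries), with a two-sided exact sign-flip permutation p of 0.5, which is the smallest that 2 libraries can give. Width and score moved with the difference: averaged within classes of replicate 1 width it was 11.3 and 4.64 points, and within 5 classes of replicate 1 score 9.79 and 4.11 points.

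**Figure D2:**
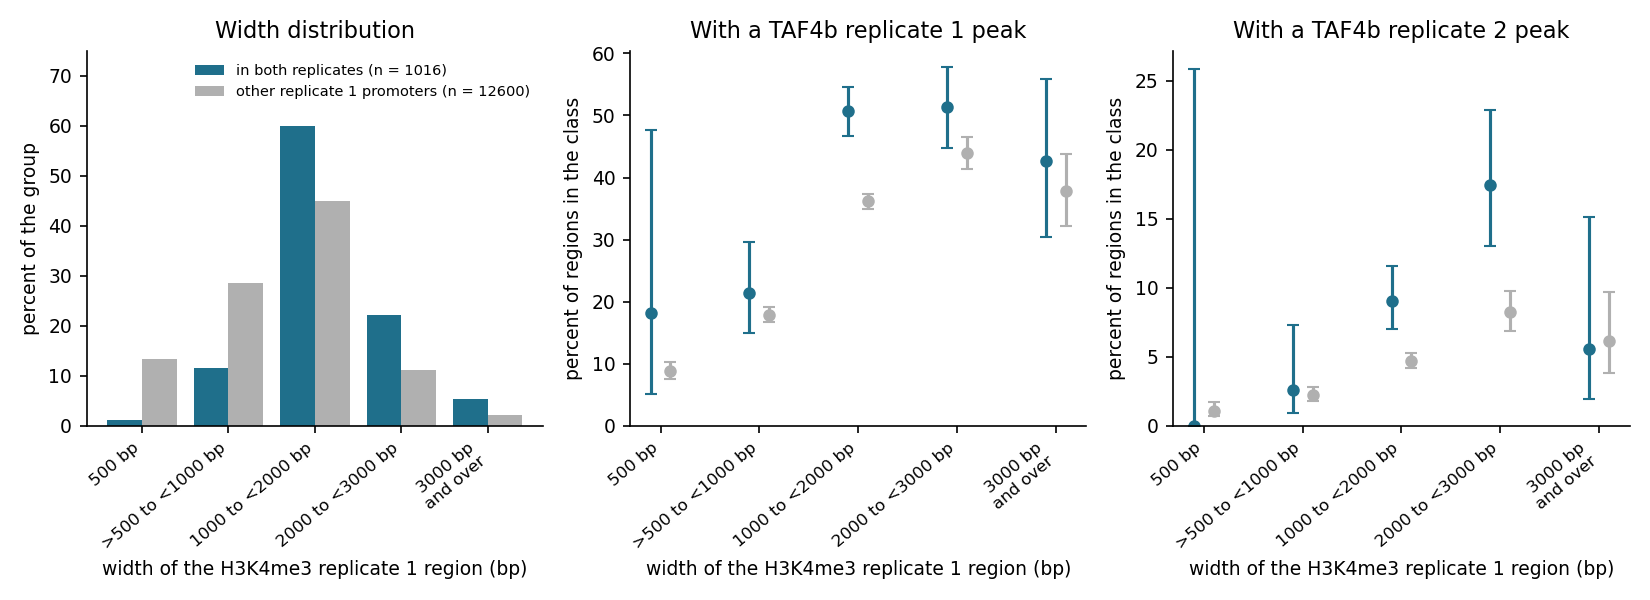
Left, percent of the 1016 promoters found in both H3K4me3 replicates (blue) and of 12600 other replicate 1 promoters (grey) in each class of replicate 1 width; middle and right, percent of each class with a peak of TAF4b replicate 1 or 2, with 95% Wilson intervals. From 1000 to under 3000 bp the blue points lie above the grey points in both libraries, and from 3000 bp the intervals overlap.

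By width, the shares differed most from 1000 to under 2000 bp in TAF4b replicate 1 and from 2000 to under 3000 bp in replicate 2. Under 1000 bp, 21.1% of the 128 promoters held a replicate 1 peak against 14.98% of the other promoters, and 2.34% against 1.86% a replicate 2 peak, with overlapping intervals. From 1000 to under 2000 bp, 50.7% of the 610 promoters held a TAF4b replicate 1 peak against 36.2% of the other promoters, and 9.02% against 4.68% a replicate 2 peak. From 2000 to under 3000 bp the shares were 51.3% against 43.9%, with overlapping intervals, and 17.4% against 8.21%. Among the 54 promoters of 3000 bp or more, 42.6% against 37.8% held a replicate 1 peak and 5.56% against 6.11% a replicate 2 peak, and these intervals overlapped. In 4 bands of replicate 2 H3K4me3 score, from lowest to highest, TAF4b replicate 1 peaks lay at 37.2%, 35.5%, 37.8% and 53.5% of the promoters, and replicate 2 peaks at 7.69%, 4.27%, 9.74% and 13.3%. The highest band stood above the others, with no steady rise below it.

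The genes of highest replicate 2 score with TAF4b peaks of both libraries include genes of signalling, protein handling and transcription. At Srgap2 (chr1:131454592-131455519) the TAF4b peaks scored 56.6 in replicate 1 (rank 21) and 125.5 in replicate 2 (rank 30). Mast3, a microtubule-associated kinase gene, had 46.7 and 121.4. Calr, which encodes the endoplasmic reticulum chaperone calreticulin, had 38.2 and 105.3, and Man1b1, a mannosidase gene of the same compartment, 26.3 and 44.5. Eef1g, a translation elongation factor gene, had 28.8 and 48.6. Sap130, a subunit gene of the SIN3 histone deacetylase complex, had 40.2 and 121.4, and Bambi, a decoy receptor gene of TGF-beta and BMP signalling, 26.3 and 85.

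Others among the 15 named by this rule encode phosphatase components: Ppp2r5e, a regulatory subunit of PP2A, had TAF4b scores of 33.3 and 72.9, and Ppm1g had 19.9 and 48.6. Iqsec1, an exchange factor gene for ARF GTPases, had 21.3 and 64.8, and the mitochondrial carrier gene Sfxn5 had 12.9 and 44.5. Iffo2 had 38.7 and 81, and Fnbp4 had 36.2 and 56.7. The Thap2 region, with 32.8 and 56.7, holds the start of Zfc3h1 on the other strand, and the region classed under 4930578M07Rik, with 33.3 and 60.7, holds the start of Nutf2, a nuclear transport factor gene. At members with a peak, TAF4b replicate 1 scores had a median of 21.3 against 16.9 at the 5337 other TAF4b promoter peaks, and replicate 2 scores 64.8 against 60.7.

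TAF4b lay just upstream of the start, while the H3K4me3 regions were centred on it. The deposited distance from the region's centre to the nearest start had a median of -9 bp, and 611 regions (60.1%) were centred within 100 bp. For TAF4b replicate 1 peaks the median was -52 bp (quartiles -98 and -7), with 79.2% upstream, and for replicate 2 it was -68 bp (-134 and -17), with 84.3% upstream. Of the H3K4me3 regions, 54.5% were centred upstream.

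**Figure D3:**
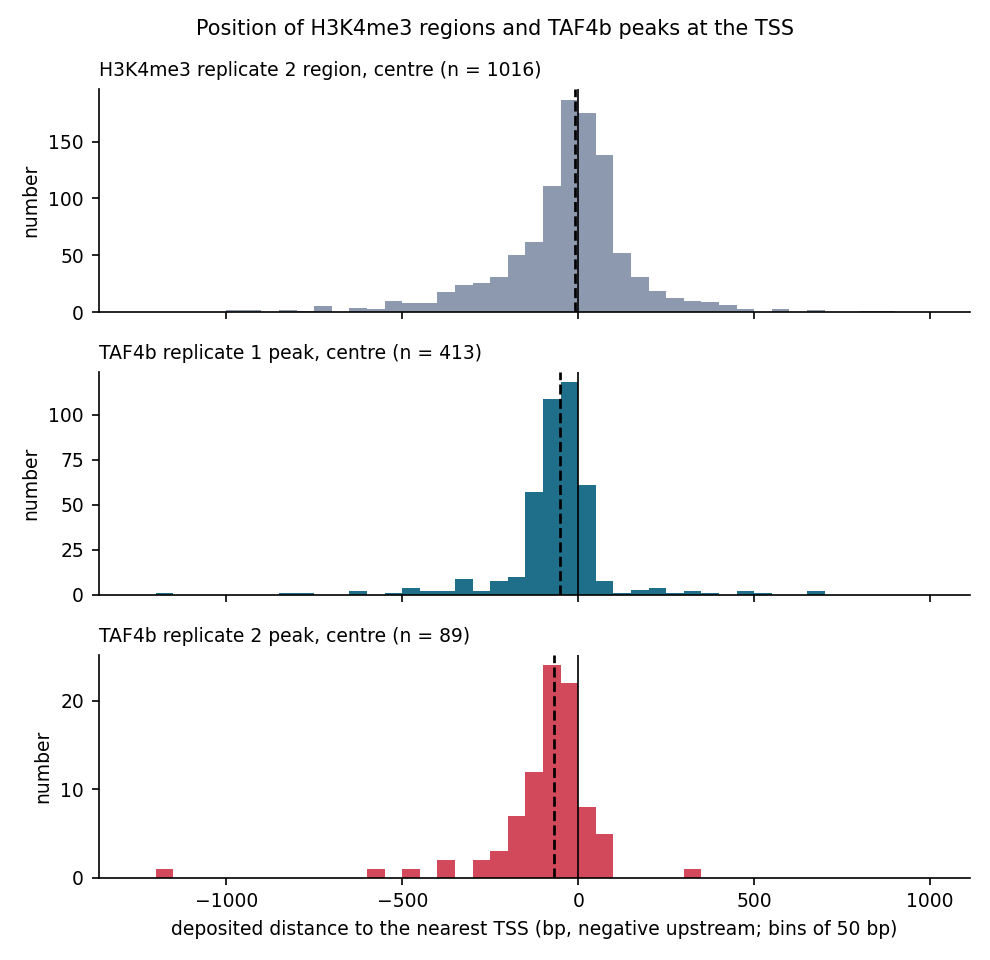
Number of H3K4me3 replicate 2 regions (top), TAF4b replicate 1 peaks (middle) and TAF4b replicate 2 peaks (bottom) at the promoters by the deposited distance of their centre to the nearest start site, in bins of 50 bp with upstream negative; the dashed line is the median. The H3K4me3 median is -9 bp and the TAF4b medians are -52 and -68 bp.

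A TAF4b peak was listed at a larger share of the promoters that serve coding genes on both strands. Starts of coding genes on both strands lay in 10.1% of the replicate 2 regions. A TAF4b replicate 1 peak overlapped 66 of these regions (64.1%, 54.5% to 72.7%), against 38.0% of the other 913, and a replicate 2 peak 13.6% against 8.21%. Counted over replicate 1 regions, starts on both strands lay in 14.4% of the promoters found in both replicates and in 7.87% of the other promoters. The first set was wider (median 1636 against 1164 bp) and more often of coding genes (86.9% against 77.7%). The parts of width and gene type in this difference were not separated. By sequence, promoters with a CCAAT box held a TAF4b replicate 1 peak in 49.6% of cases against 36.0% without it, and a replicate 2 peak in 12.0% against 7.05%. For the GC box the shares were 42.9% against 37.1% and 10.8% against 5.65%. The motif CACCC lay in 51.9% of these promoters, against 50.02% of the other replicate 1 promoter regions and 46.9% of all coding genes. With it, 35.4% of promoters held a TAF4b replicate 1 peak against 46.2% without it, a smaller share, and 9.75% against 7.63% a replicate 2 peak. For the ETS motif the libraries also went in opposite directions, at 56.2% against 39.1% in replicate 1 and 7.87% against 8.81% in replicate 2. Each of these shares was observed once per library, and no difference between them was tested.

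Of the 12565 genes with a promoter region in replicate 1 or among these promoters, 1006 had a promoter found in both replicates, a background of 8.01%. Of the 1006, 139 (13.8%) belonged to any of 41 lists of pathways and families. Of all genes with a promoter region in replicate 1 or among these promoters, 1787 of 12564 (14.2%) did. All list shares below use genes counted on this basis, so a member counts even where its replicate 1 region was of another class. The lists were chosen with earlier results of these data known, so the counts are descriptions.

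**Figure D4:**
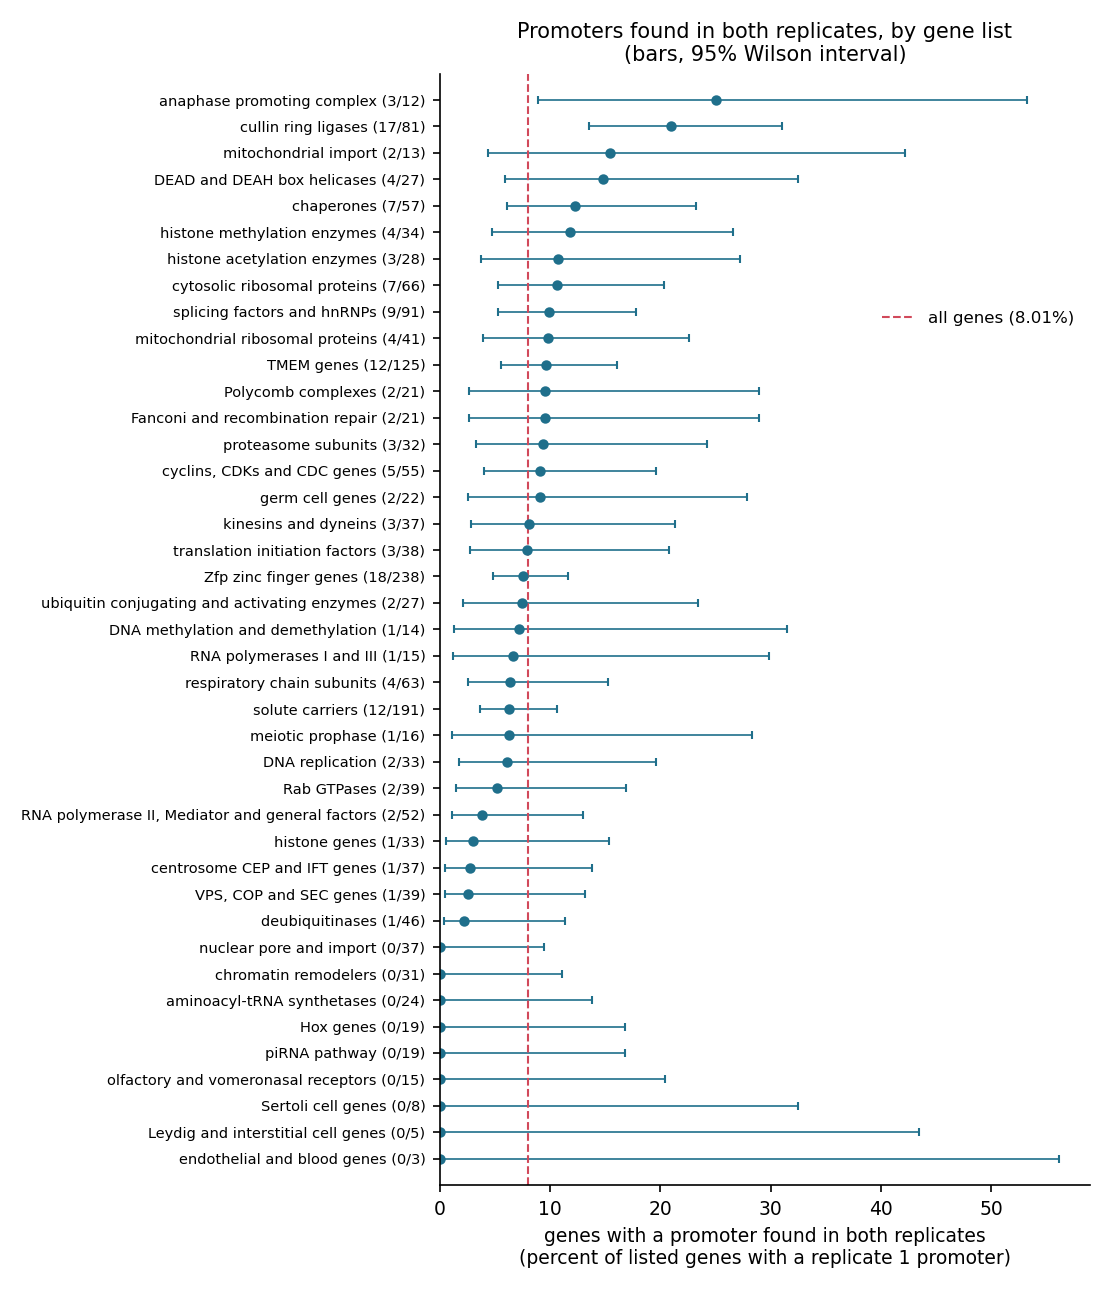
Share of the genes of each list with a promoter found in both replicates, with 95% Wilson intervals. Shares are of listed genes with a promoter region in replicate 1 or among the 1016 promoters. Counts stand in parentheses and the dashed line is the share over all genes, 8.01%. The interval of the cullin ring ligases, at 21.0%, lies above the line, and the anaphase promoting complex, at 25%, rests on 3 genes.

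The lists with the highest shares were of ubiquitin ligase components, the extremes of 41 lists of which none was tested. Other ubiquitin lists were not high: conjugating and activating enzymes had 2 of 27 (7.41%) and deubiquitinases 1 of 46 (2.17%). Of 81 genes for cullin ring ligase subunits and adaptors counted on this basis, 17 (21.0%, 13.5% to 31.1%) had a promoter found in both replicates. They include the F-box genes Fbxo44, Fbxl12, Fbxo27, Fbxw4 and Fbxw11, whose products bring substrates to SCF ligases, the adaptor genes Klhl26 and Kctd21, and the scaffold gene Cul7. Fbxl12 scored 161.7 in replicate 2 and 354.8 in replicate 1 (rank 37), where its region was 3907 bp wide. Klhl26 scored 202.1 and 277.3. Kctd9 held the highest TAF4b replicate 2 score of the list, 113.4, without a replicate 1 peak. In all, 7 of the 17 had a TAF4b replicate 1 peak and 2 a replicate 2 peak, near the 40.6% and 8.76% over all 1016. The anaphase promoting complex, the ubiquitin ligase of mitotic and meiotic exit, had 3 of 12 (25%, 8.89% to 53.2%). Fzr1, its activator, scored 187 in replicate 2, Anapc10 181.9 and Cdc26 101.1. All 3 held a TAF4b replicate 1 peak, while the proteasome and translation initiation factor lists, with 3 genes each, had 0. Counts this small do not set a list apart from the 40.6% over all 1016. Counted instead by any coding start inside the region, the cullin ring ligases had 18 genes and the anaphase promoting complex 2, so the share of the latter rests on very few genes.

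Genes of RNA and protein synthesis were near the background. Cytosolic ribosomal protein genes had 7 of 66 (10.6%), among them Rpl13 with a replicate 2 score of 136.4, Rpl11 and Rpl14 with 111.2 and Rpl32 and Rpl37 with 101.1. Splicing factor and hnRNP genes had 9 of 91 (9.89%), led by Hnrnpdl at 197.1, Ddx39a at 181.9 and Prpf8, the central scaffold of the spliceosome, at 181.9. Hnrnpu held TAF4b peaks of both libraries, at 19.9 and 72.9. Chaperone genes had 7 of 57 (12.3%), among them Hsp90ab1 at 131.4, Dnajb1 at 121.3 and Cct3 at 106.1 with a TAF4b replicate 1 peak and Cct6b and Dnajc25 at 96 without. In all, 5 of the 7 had such a peak, where 40.6% of all 1016 did, a count too small to set them apart. Aminoacyl-tRNA synthetase genes had 0 of 24 and nuclear pore and import genes 0 of 37, and their intervals reach 13.8% and 9.41%. Counted by any coding start inside the region, each of these lists had 1 gene.

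Among regulators of chromatin and transcription, histone methylation enzymes had 4 of 34 (11.8%). Nsd1, which encodes an H3K36 methyltransferase, scored 232.4 in replicate 2 (rank 31) and 217.6 in replicate 1, and Nsd3 146.5 and 138.6. Kdm4a, a histone demethylase gene, scored 106.1 and 219.1, and Prmt7, an arginine methyltransferase gene, 106.1 and 181.9. Polycomb genes had 2 of 21, Phf19 and Pcgf1. Both had a TAF4b replicate 1 peak, where 40.6% of all 1016 did, a count too small to set them apart. Dnmt3a, the de novo DNA methyltransferase gene active in fetal male germ cells, scored 111.2 in replicate 2 and 44.7 in replicate 1 (rank 33107), with no TAF4b peak. RNA polymerase II, Mediator and general factor genes had 2 of 52 (3.85%), Polr2d and Taf5l. Counted by any coding start inside the region, these had 4 genes and Polycomb 1, so both counts rest on how genes are assigned. Zinc finger genes named Zfp had 18 of 238 (7.56%), led by Zfp553 at 192, Zfp46 at 151.6 and Zfp775 at 151.6. Chromatin remodeler genes had 0 of 31 and Hox genes 0 of 19.

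The list of cyclins, CDKs and CDC genes had 5 of 55 (9.09%), of which Cdc42bpb and Cdc42ep4 act with the GTPase CDC42 and not in the cell cycle. The others were Ccnt2, Cdc26 and Cdk20, each with a TAF4b replicate 1 peak, and Cdk20 also had a replicate 2 peak (17.4 and 76.9). So 3 of the 5 had a replicate 1 peak, too few to set them apart from the 40.6% over all 1016. The replication genes Mcm5, of the helicase, and Orc6, of the origin recognition complex, scored 101.1 each in replicate 2, and Orc6 held TAF4b peaks of both libraries (20.3 and 81). Of repair genes, Fance of the Fanconi core complex scored 176.9 and Rad18 96. Solute carrier genes had 12 of 191 (6.28%) and TMEM genes 12 of 125 (9.6%). Slc27a1, a fatty acid transporter gene, led the first at 197.1 and Tmem221 the second at 187.

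The shares of the germ cell and meiotic lists were near the background of 8.01%. The germ cell list had 2 of 22 (9.09%, 2.53% to 27.8%). Sohlh2, which encodes a helix-loop-helix factor of spermatogonial differentiation, scored 141.5 in replicate 2 and 110.3 in replicate 1, and Etv5 101.1 and 110.3. Both held a TAF4b replicate 1 peak, at 13.4 and 39.7, too few genes to set apart from the 40.6% over all 1016. The meiotic list had 1 of 16 (6.25%), Meiob, a recombination factor gene, which scored 161.7 and 126.7 with a TAF4b replicate 1 peak of 15.9. The piRNA pathway list had 0 of 19, with an interval that reaches 16.8%. As a check of the labelled cell type, markers were counted by a promoter region in replicate 1 or among these promoters. Of 15 germ cell markers 9 had one (Ddx4, Dazl, Dppa3, Mael, Tdrd1, Piwil2, Mov10l1, Sall4 and Sohlh2). Pou5f1, Nanos2, Nanos3, Dnd1, Utf1 and Kit did not. So did 5 of 7 Sertoli cell (Sox9, Dhh, Fgf9, Gata4 and Wt1), 3 of 7 Leydig and interstitial, 2 of 4 endothelial and 1 of 4 blood markers. The Sertoli cell share was no lower than the germ cell share, so these counts do not single out germ cells. Sohlh2 was the marker among the promoters found in both replicates. H3K4me3 also occupies promoters of silent genes, and the part of other cells in these lists was not tested.

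Protein-coding genes made up 883 of the promoters (86.9%), against 77.7% of the other replicate 1 promoters, and lncRNA genes 92 (9.06%), against 13.2%. The region of 58 of 125 non-coding members (46.4%) also contained the start of a coding gene, so the authors' class named the non-coding partner. Gm38345, with scores of 242.6 and 110.3, shares its region with Hhex, a homeobox gene, 4930481B07Rik (202.1 and 298.1) with Zfp687, Gm15908 (202.1 and 201.2) with Pxdc1 and Gm16312 (252.7 and 190.8) with Nudt8. No coding start lay in the regions of Gm49697 (454.8 and 305.6), Gm41231 (288 and 114.8), Zbed5-ps (212.2 and 152) or Mir210, a hypoxia-responsive microRNA gene (212.2 and 166.9). Of these 8, a TAF4b replicate 1 peak lay at Gm16312 and Mir210 and a replicate 2 peak at Zbed5-ps and 4930481B07Rik. TAF4b replicate 1 peaks lay at 38.4% of non-coding and 40.9% of coding members.

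Rab9, a gene of late endosome trafficking, was the sole member on chromosome X (chrX:165262557-165263057), with scores of 101.1 in replicate 2 and 87.9 in replicate 1 and a TAF4b replicate 1 peak of 31.3. This is 0.0984% of the promoters (interval 0.0174% to 0.555%), whereas 392 of the 13454 replicate 1 promoter regions (2.91%) lay on X. Chromosome 8 held 74 of the promoters (7.28%), against 5.15%, and chromosome 10 held 37 (3.64%), against 5.26%. A pair of genes had 2 such promoters each. Gabbr1, a GABA-B receptor gene, had starts scoring 166.8 and 131.4 in replicate 2 and 196.8 and 70.1 in replicate 1. Fa2h, a fatty acid hydroxylase gene, had 176.9 and 96, and 86.5 and 46.2. In both genes the higher-scoring start, and not the other, held a TAF4b replicate 1 peak, at 11.9 in Gabbr1 and 12.4 in Fa2h.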

How the data were processed

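The deposited lists give TAF4b peaks and H3K4me3 regions, with 1 CUT&RUN library per list. The submitters' processing notes name bcl2fastq 2.20, Trim Galore 0.5.0, FastQC 0.11.5, Bowtie2 2.3.0, SAMtools 1.9 and HOMER 4.10. The annotation used GRCm39 and Ensembl release 103, per the file headers for H3K4me3. For printed sequences no window on chromosome 18 was taken. Peak caller settings are not given in the sources used here. The deposited score is the authors' peak score with no stated normalization and was used to rank within a list. The deposited distance to the TSS, in bp, and the promoter-TSS class are the authors'.

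Groups and replicate numbers came from the sample titles. Overlaps of at least 1 bp, shares with 95% Wilson intervals, and motif matches were computed in Python 3.11.15 (pandas 2.3.3, scipy 1.17.1, pysam 0.24.0), and the overlap code was checked on simulated intervals. Genes and starts came from GENCODE M39, which held 1008 of 1016 transcripts. For 628 of 1006 regions the deposited distance equalled, within 1 bp, that to the M39 start of the nearest transcript. The members, lists and motifs were chosen with earlier results of these data known.

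Genes were named by rule: the 15 highest replicate 2 scores, the 10 widest and 5 narrowest replicate 1 regions, the 15 highest with both TAF4b peaks, genes with several members, up to 8 per list, the edges of the rule, chromosome X and 8 non-coding genes. Some items that these rules select are not reported here. Pcdh17, Paqr3, Strada and Ubr2 were added for their sequences, and Kctd9 and Cul7 after their values were seen. Alternatives changed the overlap, the promoter definition, the score range, the TAF4b window, width and score classes, chromosomes and the motif window. The IgG libraries were not analysed here.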

Additional observations from a re-analysis of the deposited data

How the results depend on the processing

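The number of promoters was 991 with 50% overlap of the replicate 2 region, 854 with both regions in the promoter class, 1401 by distance to the TSS in place of the class, and 605 when the higher-scoring 50% of each H3K4me3 list was used. The share with a TAF4b replicate 1 peak was 46.7% counted in the replicate 1 region, 47.0% for centres within 1000 bp and 32.4% with the higher-scoring 50% of TAF4b peaks, which left 5.51% for replicate 2. The excess over other promoters was 11.3 points within width classes and 9.79 within score classes in TAF4b replicate 1, and in replicate 2 it was 4.11 within score classes and 3.77 with the higher-scoring peaks. It was positive under each alternative, and leaving out a TAF4b library gave a range of 5.92 to 18.5 points. Leaving out an H3K4me3 replicate was not possible, since both chose the promoters. Of the motif shares 26 stayed within their interval and 10 moved, and of the list counts 28 stayed close to the reported count, within 1.5 times, and 13 did not. Without the 2 extreme promoters, an alternative chosen after seeing the data as were the nearest-transcript start and the promoter class in replicate 1, the TAF4b shares were 40.6% and 8.78%. No paired analysis was possible because the promoters need both H3K4me3 lists at once and the TAF4b comparison is made within each library. Depth, which is unknown, limits every statement about promoters not listed in replicate 2.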
